A study of Mus musculus with 2 samples.

Results

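For mast cells of the choroid 9 genes were followed, out of 23420 gene rows counted in RNA of mouse retinal pigment epithelium (RPE)-choroid. The counts do not show which cells, or which part of the dissected tissue, a transcript came from. The genes were taken by name: the granule protease genes Cpa3, Mcpt4, Cma1 and Tpsb2, the IgE receptor chain genes Fcer1a and Ms4a2, the histidine decarboxylase gene Hdc, and Kit with its ligand gene Kitl. The RPE is the pigmented layer beneath the retina, and the choroid is the vascular coat behind it. Polyadenylated RNA came from untreated mice of 11 to 13 months, with RNA of 2 eyes pooled per library and 3 animals in each of 2 groups. The first group, labelled AhR -/-, was of strain B6.129-AhR tm1Bra/J and carried a germline targeting of Ahr, the gene of the aryl hydrocarbon receptor, in every cell. The second, labelled AhR +/+, was of strain C57BL6/J. The comparison asks which transcripts of this tissue differ between the genotypes. Littermate controls are not mentioned in the labels, so the targeting and the strain background cannot be told apart.

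Mast cells are tissue-resident granulocytes that lie along vessels, and the choroid is known to hold them. They mature under Kit ligand, which binds the receptor tyrosine kinase Kit. Their granules store chymases, tryptase, carboxypeptidase A3, heparin and histamine, and antigen bound to IgE on the high-affinity receptor releases these stores. In the mouse, connective tissue mast cells carry Mcpt4, Cma1, Cpa3 and Tpsb2, whereas mucosal mast cells carry Mcpt1 and Mcpt2.

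Depth ran from 18058725 to 28692624 gene counts a library. Below, 3 values in a row belong to animals 1, 2 and 3 of a genotype, and levels are in CPM, the count scaled to library size. Ahr did not serve to check the genotype labels: it stood at 41.4, 45.4 and 40.6 CPM (knockout-labelled) against 19.7, 20.2 and 26.0 CPM (wild type). Its log2 fold change was 0.95 (SE 0.16, adjusted p = 0.0991 in edgeR's quasi-likelihood test). The count does not separate the targeted part from the rest, and the direction goes against a loss of transcript, so the libraries are called knockout-labelled. Markers of RPE and endothelium were present in every library, as were markers outside the dissected tissue. The summed level of 9 cornea and conjunctiva markers ran from 3539 to 15100 CPM in knockout-labelled and from 2524 to 6104 CPM in wild-type libraries. That of 7 rod and cone markers ran from 10310 to 11680 and from 7109 to 15510 CPM.

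In the RefSeq table of the build GRCm38.p6, 8 of the 9 genes had a window upstream of the annotated start, and 250 bases before the start were searched on both strands. Tpsb2 was the gene without a window. The windows of 3 proteases and of the IgE receptor chains are shown because these genes mark mast cells and basophils most narrowly. Capitals mark GATA or its reverse complement, the core bound by GATA factors, and CACATG or its reverse complement, a core bound by the mast cell factor Mitf. The windows lie at chr3:20242182-20242431 (Cpa3), chr14:56062311-56062560 (Mcpt4), chr14:55944676-55944925 (Cma1), chr1:173227230-173227479 (Fcer1a) and chr19:11623720-11623969 (Ms4a2), all on the minus strand.
Cpa3: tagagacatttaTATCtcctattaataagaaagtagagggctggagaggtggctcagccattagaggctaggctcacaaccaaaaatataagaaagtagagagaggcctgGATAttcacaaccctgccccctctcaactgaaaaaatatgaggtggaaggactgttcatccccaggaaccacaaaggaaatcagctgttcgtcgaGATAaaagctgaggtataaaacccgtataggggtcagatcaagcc
Mcpt4: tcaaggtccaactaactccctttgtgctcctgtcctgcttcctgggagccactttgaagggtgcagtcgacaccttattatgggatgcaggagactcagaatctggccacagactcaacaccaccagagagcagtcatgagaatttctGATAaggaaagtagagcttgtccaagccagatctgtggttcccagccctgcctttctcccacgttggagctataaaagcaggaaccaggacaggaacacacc
Cma1: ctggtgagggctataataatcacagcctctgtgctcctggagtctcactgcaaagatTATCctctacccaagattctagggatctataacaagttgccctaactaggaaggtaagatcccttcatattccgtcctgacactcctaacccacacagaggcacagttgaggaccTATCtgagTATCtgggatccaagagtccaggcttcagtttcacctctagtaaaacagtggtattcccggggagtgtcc
Fcer1a: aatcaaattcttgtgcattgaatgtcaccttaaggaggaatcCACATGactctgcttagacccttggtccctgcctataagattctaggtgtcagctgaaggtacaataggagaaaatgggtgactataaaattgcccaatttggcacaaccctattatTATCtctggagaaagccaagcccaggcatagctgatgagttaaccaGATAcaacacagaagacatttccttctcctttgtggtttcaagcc
Ms4a2: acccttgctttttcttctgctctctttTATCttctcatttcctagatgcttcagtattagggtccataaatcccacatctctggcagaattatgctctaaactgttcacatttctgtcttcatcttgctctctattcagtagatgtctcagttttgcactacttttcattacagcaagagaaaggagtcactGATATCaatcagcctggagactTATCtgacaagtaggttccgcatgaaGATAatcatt

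These 5 windows and that of Hdc held GATA, which is 6 of 8 members, against 53.6% of all 32851 windows of this length. Ms4a2 had the most matches, 5, and Mcpt4 had 1. CACATG was found in 1 window, that of Fcer1a, and in 12.3% of all, while its variant CACGTG, the same on both strands, was found in 0 of 8 and 6.02% of all. Kit and Kitl had no GATA and 1 match each of GCGTG, the core bound by the aryl hydrocarbon receptor with its partner, at -80 and -62 from the start. That core was found in the windows of these 2 members and in 28.2% of all. The starts used here are those of RefSeq, and the loci given below are those of GENCODE M21. The GENCODE locus of Kitl begins at 100015630, inside its window (100015571 to 100015820), and the Kitl match lies downstream of that start. The window of Hdc (126618679 to 126618928) lies wholly within its GENCODE locus (126593667 to 126619299). A match is a description of the letters, not a site.

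None of the 8 genes that could be tested passed the test between the genotypes. Of the 9, 8 passed the filter on low counts, and edgeR's quasi-likelihood test called 0 of these 8 at a Benjamini-Hochberg adjusted p under 0.05, where it called 0.0506% of 15796 genes. At an unadjusted p under 0.05 it held 0 of the 8, against 14.2% of all genes tested, and DESeq2, limma-voom and the edgeR exact test called 0 as well. The libraries of the genotypes overlapped for all 8, while they did not overlap for 20.0% of all genes. Log2 fold changes (knockout-labelled over wild type) lay above 0 for 5 genes and below 0 for 3, where 51.2% of all genes lay above 0, with a median of 0.11 against 0.01 over all genes tested. A change in the number of mast cells and a change in RNA per mast cell cannot be told apart in whole tissue. Nothing in the labels says that the animals were of separate litters. The p-values set the genotype difference against the spread of these libraries within a genotype.

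**Figure D1:**
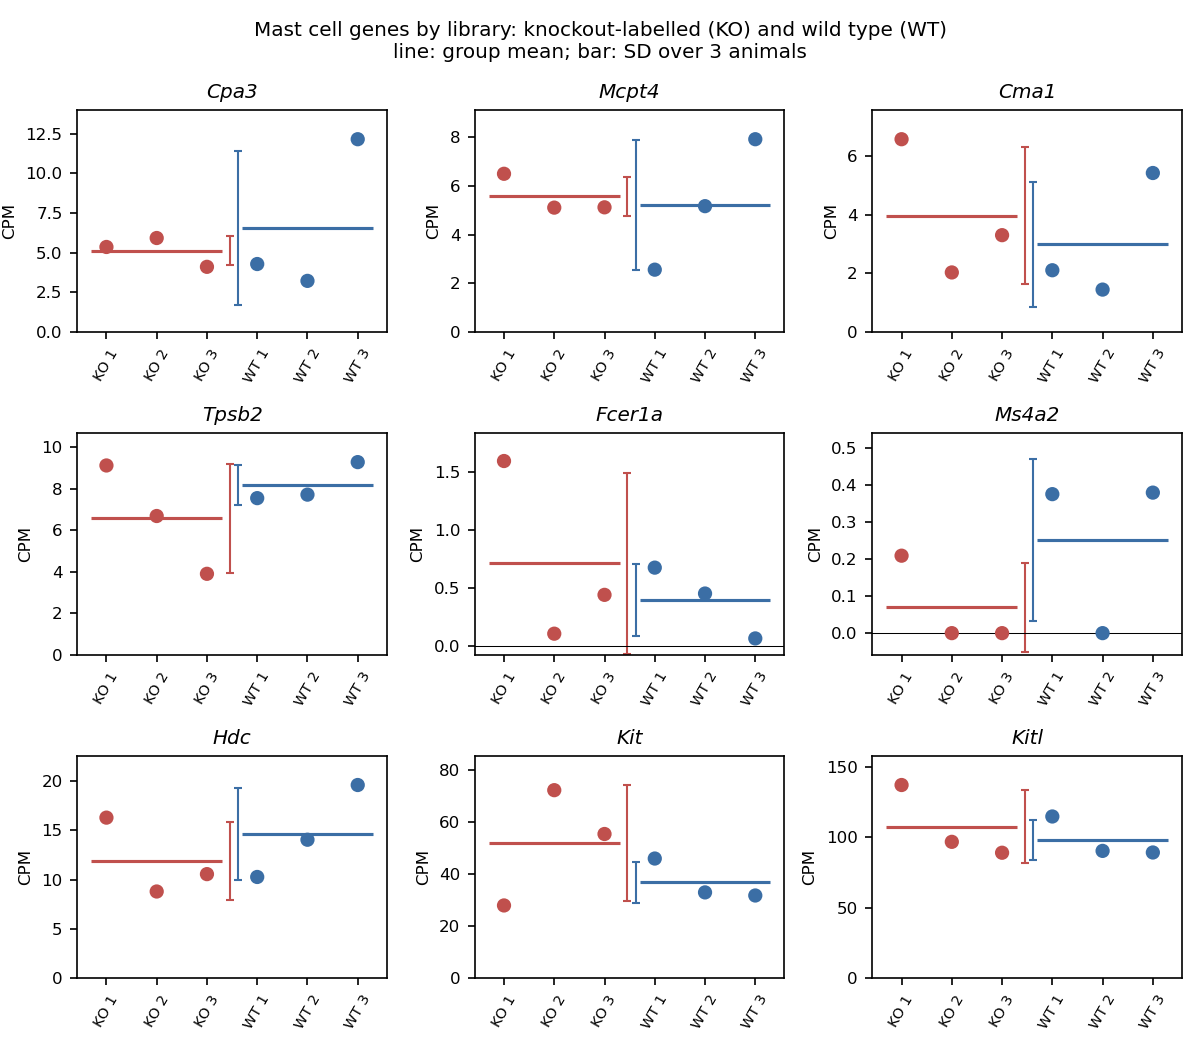
CPM of each gene (y axis, linear) in 3 knockout-labelled (KO, red) and 3 wild-type (WT, blue) libraries (x axis); lines are group means and bars are the SD over 3 animals. The points of both genotypes overlap in every panel, and Ms4a2 is at 0 in 3 libraries.

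Cpa3 encodes carboxypeptidase A3, a zinc protease of the granule that trims peptides such as snake toxins and endothelin. It has 12 exons on the minus strand of chromosome 3 (GRCm38, 20215620 to 20242181), in a locus that also holds Mir7007 outside its exons. Its level was 5.36, 5.93 and 4.11 CPM (knockout-labelled) against 4.29, 3.22 and 12.2 CPM (wild type). Wild-type animal 3 stood above all others, and the other 5 libraries were intermixed. The log2 fold change was -0.36 (95% interval -1.45 to 0.74, edgeR adjusted p = 0.789). It was 0.43 without wild-type animal 3, so that library sets its sign.

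The chymases cut proteins after aromatic residues. Mcpt4, the mouse chymase held to be closest in function to the human enzyme, stood at 6.49, 5.10 and 5.12 CPM (knockout-labelled) against 2.56, 5.16 and 7.91 CPM (wild type). The lowest and the highest library were both wild type, and the knockout-labelled libraries lay between them. For Mcpt4 the log2 fold change was 0.10 (95% interval -0.84 to 1.03, edgeR adjusted p = 0.943), and it turned to -0.23 without wild-type animal 1 and to -0.031 without knockout-labelled animal 1. Cma1, the alpha-chymase gene also known as Mcpt5, stood at 6.58, 2.03 and 3.30 CPM (knockout-labelled) against 2.11, 1.45 and 5.42 CPM (wild type). One animal of each genotype was high, knockout-labelled animal 1 and wild-type animal 3. Its log2 fold change was 0.41 (95% interval -0.97 to 1.78, edgeR adjusted p = 0.812), -0.17 without knockout-labelled animal 1 and 1.14 without wild-type animal 3. Both chymase genes lie on the minus strand of chromosome 14 in GRCm38, Cma1 at 55941451 to 55944675 and Mcpt4 at 56059629 to 56062313. Reads of this gene family can be shared. Of the 50-base stretches of their GENCODE transcripts, 5.48% of those of Mcpt4 and 5.38% of those of Cma1 also occur in another gene's transcript. The effect on their counts was not measured.

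Tpsb2 encodes the tryptase mMCP-6, a tetrameric serine protease that is active when bound to heparin; the gene lies on the plus strand of chromosome 17 (25366305 to 25369098). Its level was 9.13, 6.70 and 3.91 CPM (knockout-labelled) against 7.56, 7.73 and 9.29 CPM (wild type). The wild-type libraries were close together, with knockout-labelled animals 2 and 3 below them and animal 1 among them. Tpsb2 had a log2 fold change of -0.32 (95% interval -1.07 to 0.44, edgeR adjusted p = 0.718). It was -0.64 without knockout-labelled animal 1 (edgeR adjusted p = 0.290) and -0.050 without knockout-labelled animal 3 (edgeR adjusted p = 0.962).

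Summed over the 4 proteases, the level was 27.6, 19.8 and 16.4 CPM (knockout-labelled) against 16.5, 17.6 and 34.8 CPM (wild type). Per genotype it averaged 21.25 ± 5.71 and 22.95 ± 10.3 CPM (SD, n = 3 each), a difference of -1.70 CPM that is smaller than either SD. The highest library held 2.12 times the lowest. The difference turned sign without either of 2 libraries, to 4.22 CPM without wild-type animal 3 and to 0.71 CPM without knockout-labelled animal 3. The make-up varied as well: Tpsb2 gave from 23.8% to 45.8% of the protease counts of a library and Cma1 from 8.2% to 23.9%. Library by library the proteases took between 0.00166% and 0.00351% of all gene counts, or 360 to 1007 counts.

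**Figure D2:**
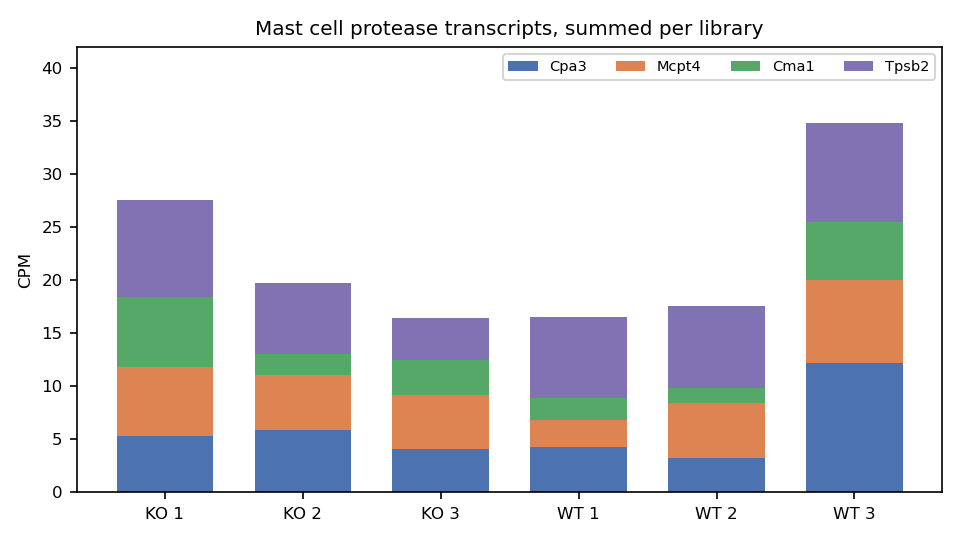
Stacked CPM of Cpa3, Mcpt4, Cma1 and Tpsb2 (y axis, linear from 0) in each of 6 libraries (x axis; KO, knockout-labelled; WT, wild type). The tallest bars are wild-type animal 3 (34.8 CPM) and knockout-labelled animal 1 (27.6 CPM), while the other 4 lie between 16.4 and 19.8 CPM.

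Of the high-affinity IgE receptor, the chains restricted to mast cells and basophils were near the limit of detection. The genes lie on the minus strands of chromosome 1 (Fcer1a, 173221284 to 173227214) and chromosome 19 (Ms4a2, 11615523 to 11623719). Fcer1a, which encodes the IgE-binding alpha chain, had 38, 2 and 11 counts (knockout-labelled) against 18, 11 and 2 counts (wild type). In knockout-labelled animal 1 this is 1.59 CPM (exact Poisson 95% interval 1.13 to 2.19, counting error only). In wild-type animal 3, which had the most protease transcripts, it is 0.0691 CPM (0.00837 to 0.250). The log2 fold change was 0.85, with a 95% interval from -1.83 to 3.53 (edgeR adjusted p = 0.797), and it was -0.49 without knockout-labelled animal 1. Ms4a2, the gene of the signal-amplifying beta chain, had 5, 0 and 0 counts (knockout-labelled) against 10, 0 and 11 counts (wild type). It did not pass the filter and was not tested. A count of 0 allows up to 0.165, 0.121 and 0.124 CPM in the 3 libraries at 0 (3 counts each). In the authors' deposited table all 9 genes were listed, 0 of them at an FDR under 0.05, against 2.37% of its 16561 genes.

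Hdc encodes histidine decarboxylase, the enzyme that makes histamine, from the minus strand of chromosome 2 (126593667 to 126619299). Its level was 16.3, 8.78 and 10.6 CPM (knockout-labelled) against 10.3, 14.0 and 19.6 CPM (wild type). As with the protease sum, wild-type animal 3 and knockout-labelled animal 1 were highest. On the log2 scale the fold change was -0.30 (95% interval -1.0 to 0.39, edgeR adjusted p = 0.707). It ranged from -0.60 without knockout-labelled animal 1 to -0.053 without wild-type animal 3 (edgeR adjusted p = 0.275 and 0.969). Neutrophils and basophils can make Hdc as well. The summed level of the 5 of 8 neutrophil markers tested was 122, 56.7 and 80.1 CPM (knockout-labelled) against 11.8, 7.52 and 6.01 CPM (wild type). Most of that sum was Ltf, a secreted protein also made by mucosal glands, at 88.0, 46.0 and 62.2 CPM against 6.62, 1.82 and 3.25 CPM. Of the 5 markers tested, 4 had a log2 fold change above 0 and 1, Camp, below (-0.20). Ltf was the 1 marker of the 5 that edgeR called (log2 fold change 4.07, edgeR adjusted p = 0.0389), where it called 0.0506% of all genes tested. S100a8, S100a9 and Retnlg had log2 fold changes of 2.82, 3.04 and 2.81 and did not pass (edgeR adjusted p = 0.144, 0.132 and 0.434). The genotypes did not overlap for 3 of the 5, against 20.0% of all genes tested. Mpo, Elane and Ngp, also on the list of 8, were at 0 counts in all 6 libraries and were not tested. These genes were named after their values were seen. Their part in the level of Hdc was not tested.

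Kit, on the plus strand of chromosome 5 (75574916 to 75656722), did not put the libraries in the order of the proteases. The receptor is also known from melanocytes, which the choroid holds. Its level was 27.8, 72.2 and 55.3 CPM (knockout-labelled) against 45.9, 32.8 and 31.6 CPM (wild type). Knockout-labelled animals 2 and 3 were highest and knockout-labelled animal 1 was lowest of all 6, so the genotypes overlapped through that library alone. The log2 fold change was 0.49 (95% interval -0.20 to 1.18, edgeR adjusted p = 0.505), and leaving out 1 library moved it both ways. It was 0.79 without knockout-labelled animal 1 (edgeR adjusted p = 0.0575) and 0.18 without knockout-labelled animal 2 (edgeR adjusted p = 0.909). Without knockout-labelled animal 1, Kit and Tpsb2 were the 2 members whose genotypes did not overlap, which then held for 42.2% of all genes.

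Kitl, the gene of stem cell factor, is made by stromal, endothelial and epithelial cells and not chiefly by mast cells. It lies on the plus strand of chromosome 10 (100015630 to 100100416). Its level was 137, 96.8 and 89.0 CPM (knockout-labelled) against 115, 90.3 and 89.2 CPM (wild type). The values were close together apart from animal 1 of each genotype, which for Kitl and Fcer1a, 2 of the 8 tested, stood above the other 4 libraries. This held for 4.46% of all genes, and the reverse for 0 members and 5.31% of all genes. The log2 fold change was 0.13, and its 95% interval from -0.27 to 0.54 (edgeR adjusted p = 0.787), or 0.827 to 1.46 as a fold, was the narrowest of the 8.

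**Figure D3:**
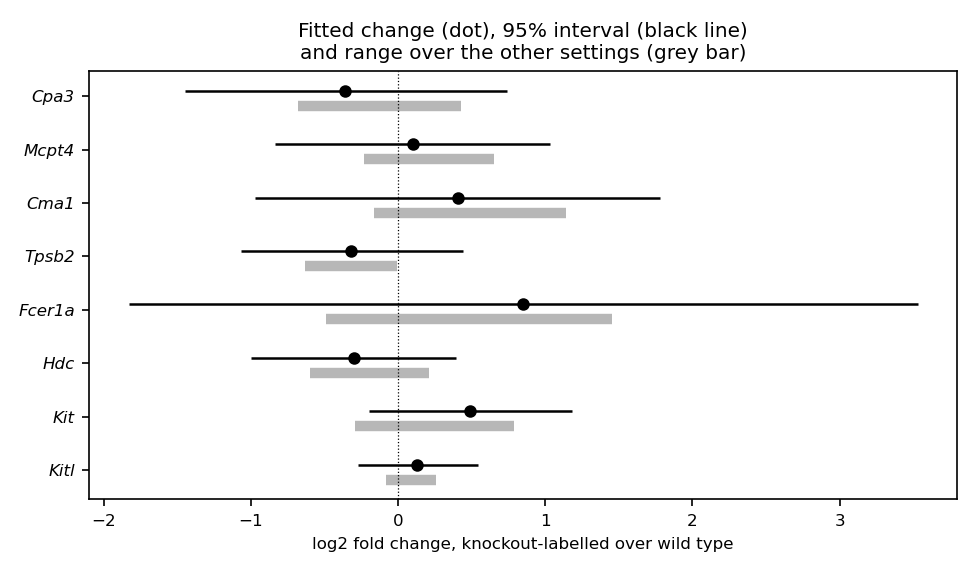
Log2 fold change, knockout-labelled over wild type (x axis), for the 8 genes tested (y axis): dots with black lines are the edgeR estimate and its 95% interval, and grey bars span the other 17 settings (16 for Fcer1a). Every black line crosses 0, from Kitl (-0.27 to 0.54) to Fcer1a (-1.83 to 3.53).

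Divided by the merged length of all annotated exons (GENCODE M21), Kitl stood highest at 17.4 ± 3.29 CPM per kb (SD over 6 libraries). Transcripts made in this tissue can be shorter, so the order holds for these lengths only. Its range, 15.1 to 23.2, lay above that of every other member. Kit followed at 4.97 ± 1.92 CPM per kb, with Mcpt4 (4.87 ± 1.60), Tpsb2 (4.63 ± 1.24), Cpa3 (3.85 ± 2.13) and Cma1 (3.19 ± 1.90) next. From Kit downwards the range of each member overlapped that of the next. Hdc stood at 2.08 ± 0.65 CPM per kb, below Cma1 in 5 of 6 libraries and above Fcer1a (0.559 ± 0.557) in all 6. Ms4a2 was last at 0.0572 ± 0.0664 CPM per kb.

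Markers of other cell types ran beside these orders. The mean log2 CPM of the proteases was 2.76, 2.18 and 2.03 (knockout-labelled) against 1.87, 1.89 and 3.06 (wild type). That of the 7 rod and cone markers was 8.71, 8.64 and 8.63, and 7.95, 8.04 and 9.12. Both put the 6 libraries in the same order, with wild-type animal 3 first and wild-type animal 1 last (Spearman rho = 1.0). The rod and cone list was the closest of 13 marker lists compared and is given for that reason. Over these 6 libraries rho with the proteases was also 0.83 for adipocyte, 0.81 for skeletal muscle and -0.83 for melanocyte markers. Kit instead ran beside the 9 cornea and conjunctiva markers, at a mean log2 CPM of 7.85, 9.80 and 9.54 (knockout-labelled) against 8.67, 7.13 and 7.57 (wild type). Knockout-labelled animals 2 and 3 and wild-type animal 1 were the top 3 libraries for Kit and for these epithelial markers. With the cornea marker score as a covariate, an alternative chosen after seeing the data, the log2 fold change of Kit was -0.29 and that of Hdc 0.21 (edgeR adjusted p = 0.774 and 0.904). All 9 of these markers had a log2 fold change above 0, with a median of 1.26. The score thus partly follows genotype, and this fit cannot separate score and genotype. The RPE markers, 8 genes, ran opposite to Kit, with a mean log2 CPM of 9.66, 8.83 and 9.02 and then 9.38, 9.64 and 9.43. The 9 melanocyte markers, Kit among them, had their lowest mean in wild-type animal 3 (8.08, against 8.29 to 8.58 in the other 5). Their likeness to Kit was near 0 (r = -0.01, rho = -0.09). Of the 13 lists, r with Kit was highest for cornea and conjunctiva (0.93, rho = 0.77) and lowest for RPE markers (-0.95, rho = -0.94). Both lists are given for that reason. It was also negative for Schwann cell (r = -0.8, rho = -0.6) and endothelial markers (r = -0.75, rho = -0.43). The part of these tissues in the levels of the proteases and Kit was not tested.

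**Figure D4:**
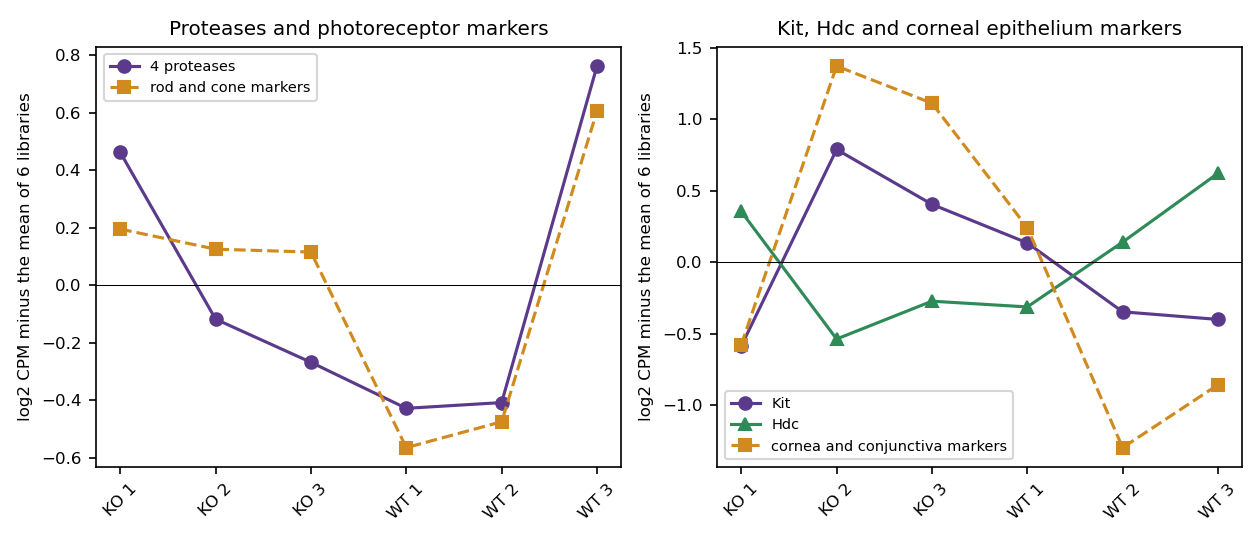
Values by library (x axis; KO, knockout-labelled; WT, wild type) on the log2 CPM scale, each minus its own mean over 6 libraries (y axis). On the left the 4 proteases and the rod and cone markers put the libraries in the same order; on the right Kit is highest in knockout-labelled animals 2 and 3 with the cornea and conjunctiva markers, where Hdc is low.

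By Pearson correlation over the 6 libraries, the genes most like the protease mean among 14803 genes were Ddhd1 (r = 0.996), Plcxd2, Sf3a3, Wbp4, Glt8d1, Slc29a4, Cyb5r1 and Fbxo22 (r = 0.976). They are the extremes of many candidates over 6 values, given as a description. None of these 8 is a mast cell granule or IgE receptor gene. Among the members themselves r with Hdc was 0.51 for Cpa3, 0.68 for Mcpt4, 0.63 for Cma1 and 0.62 for Tpsb2. It was -0.01 for Fcer1a, 0.08 for Kitl and -0.91 for Kit. Between the proteases r ran from 0.22 (Mcpt4 with Tpsb2) to 0.63 (Cpa3 with Cma1). For Fcer1a with the proteases it ran from -0.64 (Cpa3) to 0.11 (Cma1). All these values share library depth and dissection.

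No other mast cell gene passed the test. Of 23 listed, 17 were tested and edgeR called 0, with 10 log2 fold changes above 0, 7 below and a median of 0.07. At an unadjusted p under 0.05 stood 2 of them, Hpgds and Ndst2, the latter named after its values were seen, against 14.2% of all genes tested. The genotypes did not overlap for 1, against 20.0% of all genes tested. The 3 with the highest level were genes that many cells express. Cd63, of granule membranes, stood at 67.3 ± 12.7 and 78.35 ± 13.8 CPM in knockout-labelled and wild-type libraries, Hpgds, the prostaglandin D2 synthase, at 70.7 ± 27.7 and 46.3 ± 6.74 CPM, and Alox5ap, of leukotriene synthesis, at 42.4 ± 5.61 and 40.4 ± 3.28 CPM (SD, n = 3 each). Mcpt1 was at 0 counts in all 6 libraries, which allows up to 0.165 CPM in the shallowest, and Mcpt2 had 17 counts in all. The second tryptase gene Tpsab1, which carries a splice defect in the wild-type strain, had 55 counts in all. The receptor genes Mrgprb1 (1.82 ± 1.24 and 0.58 ± 0.41 CPM) and Mrgprb2 (1.48 ± 0.65 and 0.76 ± 0.68 CPM; SD, n = 3 each), named after their values were seen, were low; Mrgprb2 is the mouse receptor for basic secretagogues. Of 6 basophil genes 4 were tested and edgeR called 0, with 0 at an unadjusted p under 0.05. Mcpt8 was at 0 in all 6 libraries and Prss34, named after its values were seen, had 9 counts in all.

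Downstream of the IgE receptor, 14 of 14 listed genes were tested and edgeR called 0, with 7 above 0, 7 below and a median of 0.00. An unadjusted p under 0.05 was reached by 2, against 14.2% of all genes tested. The genotypes did not overlap for 2 of the 14, against 20.0% of all genes tested. These were Plcg1 (lower in every knockout-labelled library, log2 fold change -0.36, edgeR adjusted p = 0.286) and Lyn (higher). Plcg1, a phospholipase, stood at 85.8 ± 11.5 and 110 ± 8.37 CPM, the adaptor gene Gab2 at 80.3 ± 10.3 and 90.9 ± 7.74 CPM, and Fcer1g, the gamma chain shared with other Fc receptors and abundant in macrophages, at 84.0 ± 8.39 and 66.0 ± 29.7 CPM (SD, n = 3 each). Lyn, the kinase that phosphorylates the receptor chains, was named after its values were seen: it stood at 36.9, 36.2 and 36.8 CPM (knockout-labelled) against 29.5, 22.5 and 22.0 CPM (wild type). These did not overlap, yet its log2 fold change of 0.57 did not pass (edgeR adjusted p = 0.188).

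Of 14 genes of Kit signalling, all tested, edgeR called 0, with 4 above 0, 10 below and a median of -0.08. The genotypes did not overlap for 2, against 20.0% of all genes tested, and 1 had an unadjusted p under 0.05, against 14.2%. The gene with that p, Socs1, a feedback inhibitor of cytokine and Kit signals, stood at 2.68, 0.549 and 1.05 CPM (knockout-labelled) against 3.91, 5.58 and 3.59 CPM (wild type) (log2 fold change -1.60, adjusted p = 0.292). It too was named after its values were seen. The highest of the list were Pik3r1, the gene of a regulatory subunit of PI3 kinase (223 ± 24.7 and 250 ± 22.4 CPM), and Mitf, the mast cell and pigment cell factor (94.3 ± 8.34 and 98.4 ± 10.3 CPM; SD, n = 3 each). Of 8 genes of histamine breakdown, transport and reception, 7 were found by name, 4 were tested and edgeR called 0, with 0 at an unadjusted p under 0.05. Hnmt, which methylates histamine, stood at 22.0 ± 4.08 and 17.35 ± 1.08 CPM, the vesicle transporter gene Slc18a2 at 15.3 ± 0.50 and 20.3 ± 5.65 CPM, and the receptor gene Hrh3 at 4.01 ± 1.55 and 4.38 ± 2.04 CPM (SD, n = 3 each).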

How the data were processed

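Whole-number gene counts per animal were deposited by the authors, who used TopHat, Bowtie and HTSeq with mm10, per the submitters' processing notes. Their versions, the annotation and the strand setting are not given in the sources used. The 5 HTSeq tally rows entered neither library sizes nor tests. Reads in no feature were 14.4% to 16.8% per library. Reads not aligned uniquely were 22.94% to 25.06% in knockout-labelled and 18.7% to 19.36% in wild-type libraries. The authors' deposited edgeR table gives log2 fold changes (sign turned here to knockout-labelled over wild type), mean log2 CPM, p-values and FDR.

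The main test was the quasi-likelihood test of edgeR 4.0.16 (R 4.3.3) after filterByExpr (minimum count 10, minimum total 15) and TMM, by glmQLFit and glmQLFTest on genotype alone, with Benjamini-Hochberg adjustment over 15796 genes. Standard errors are the absolute log2 fold change over the square root of F. Levels are CPM on the TMM-adjusted library size; log2 CPM used a prior count of 0.5. Intervals and floors of 3 counts cover counting error only. Alternatives were other normalizations and filters, DESeq2 1.42.0, limma-voom (limma 3.58.1), the exact test, a replicate block, sex, GC offsets and each library left out.

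All members were named. Of the mast cell, IgE receptor, Kit and histamine lists, called genes were to be named, or else the 3 with the highest level and cell-defining genes at 0, and the 8 genes most like the proteases. One gene that this rule names is not reported here. Members and lists were chosen with earlier results of these data known. Loci, lengths and GC content came from GENCODE M21 (GRCm38).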

Additional observations from a re-analysis of the deposited data

How the results depend on the processing

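No member was called under any setting run. The number of genes called over the whole table, 8, was 15 with upper-quartile factors, 22 with no filter, 16 with a CPM filter, 483 with DESeq2, 13 with limma-voom, 352 with the edgeR exact test, 1 with sex as a covariate, 5 with GC offsets, 24 with the cornea marker covariate and 30 at an adjusted p under 0.1. With the animal number as a replicate block it was 1. Same-numbered animals did not deviate together (correlations of -0.068, -0.071 and -0.047). With 3 animals in each group this cannot exclude a pairing. In same-numbered animals the same gene of Xist and Ddx3y was the higher. The block changed no call of a member.

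Leaving out a library moved that number from 0 to 795: it was 795 without animal 1 of the knockout-labelled group, 0 without its animal 2 or its animal 3, and 1 and 0 without wild-type animals 2 and 3. Members called stayed at 0. The members with non-overlapping genotypes went from 0 to 2, and the difference in summed protease CPM from -4.94 to 3.94 when the libraries left were normalized anew. As a mean log2 CPM in place of the sum, that difference was 0.046, of opposite sign. Without a library the log2 fold change ran from -0.68 to 0.43 for Cpa3, -0.23 to 0.51 for Mcpt4, -0.17 to 1.14 for Cma1, -0.64 to -0.050 for Tpsb2, -0.49 to 1.45 for Fcer1a, -0.60 to -0.053 for Hdc, 0.18 to 0.79 for Kit and -0.081 to 0.26 for Kitl. With the cornea marker covariate Kit (-0.29) and Hdc (0.21) turned sign. The causes were not tested. The 95% intervals of the proteases reach from 0.365-fold (Cpa3) to 3.45-fold (Cma1).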

Other observations

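Kitl and Fcer1a were highest in animal 1 of both genotypes. Kitl stood at 137 and 115 CPM there, against 89.0 to 96.8 CPM in the other 4 libraries, and Fcer1a at 1.59 and 0.677 CPM against 0.0691 to 0.455 CPM. Among all genes 4.46% were highest in both of these libraries. In these 2 animals the Xist count exceeded that of Ddx3y, and in the other 4 the reverse held. The pattern was noticed in the data and was not tested.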
